A study of Mus musculus with 15 samples.

Results

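Integrins are the cell surface receptors that hold cells to the matrix, and laminins are the main glycoproteins of the sheets of matrix called basement membranes. The genes described here are the members of both families measured in newborn mouse pituitary, in Prop1df/df and Pit1dw/dw dwarf mutants and in normal mice. They were chosen by symbol, as every gene of the array annotation named as an integrin alpha or beta subunit (Itga, Itgb) or a laminin alpha, beta or gamma chain (Lama, Lamb, Lamc), and none was chosen by its values. The rule found 34 genes of 18193 with a single name, made up of 24 integrin and 10 laminin genes. Itga11 and Itgad were not analysed here.

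RNA was pooled from pituitaries at postnatal day 1, and 5 pools of each genotype were each hybridised to an Affymetrix expression array. Prop1df/df mice, on the DF/B background, are homozygous for the df allele. Pit1dw/dw mice, on the DW/J background, are homozygous for the Snell dwarf allele of Pit1, the POU factor that cells making growth hormone, prolactin and thyrotropin need. Pit1+/+ mice, also DW/J, are normal at that locus. Mice of all 3 groups were kept on a high fat chow per the labels, which state neither the sex of the pups nor how many glands made up a pool. Prop1df/df differs in strain from both other groups, so genotype and strain cannot be told apart in its comparisons, while Pit1dw/dw against Pit1+/+ lies within a strain. A further group of the study was not analysed here.

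An integrin is a dimer of an alpha and a beta subunit, and the alpha subunit largely sets which matrix protein it binds. A laminin is a trimer of an alpha, a beta and a gamma chain that assembles into the basement membrane, where integrins and dystroglycan bind its alpha chain. In the anterior pituitary such membranes bound the cords of hormone cells and the capillaries between them, and progenitors that leave the lining of the gland's lumen exchange their contacts as they move into these cords. Nerves, vessels, connective tissue and blood cells carry their own integrins and laminins, so RNA of a whole gland sums over all of them. In such bulk RNA, fewer cells of a type and less RNA per cell cannot be told apart.

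The values are log2 signals, so a difference of 1 is a change of 2-fold, and the level of a probe set cannot be set against that of another. Array medians ran from 4.31 to 4.43, and correlations between arrays over all probe sets ran from 0.941 to 0.992. Pituitary identity was present in every pool, with Pomc at 13.19 to 13.75 in Prop1df/df, 14.03 to 14.17 in Pit1dw/dw and 13.74 to 13.99 in Pit1+/+. The mutated genes themselves were not analysed here. Growth hormone (Gh) split the Prop1df/df pools, with 13.58, 14.07 and 14.03 in pools 1, 2 and 3 and 8.99 and 10.24 in pools 4 and 5, against 7.15 to 10.31 in Pit1dw/dw and 14.15 to 14.28 in Pit1+/+. The progenitor gene Hesx1, at 4.40 to 5.93 in Prop1df/df, was above Pit1dw/dw (2.56 to 3.15) and Pit1+/+ (2.79 to 3.05) in all 5 pools, so the members and adhesion genes that passed in this group are also given without pools 1, 2 and 3. Pool 1 of Pit1+/+ has a genotype entry that names Prop1df/df, whereas its title, source and strain are those of Pit1+/+. Its Gh (14.22) and Hesx1 (2.81) lay with the other Pit1+/+ pools. Prph, a gene of peripheral neurons, was above 7 in 5 pools (Prop1df/df pools 3 and 4, Pit1dw/dw pools 2 and 3, Pit1+/+ pool 3), at 7.79 to 10.59 against 2.98 to 4.96 in the other 10.

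A single member passed the test, and it did so in both comparisons of Prop1df/df: Itga9, the alpha subunit of a receptor for tenascin C and osteopontin, was 4.31-fold higher than in Pit1+/+ and 6.02-fold higher than in Pit1dw/dw. The tests were moderated statistics from limma, adjusted by Benjamini-Hochberg over the 18193 genes, with a threshold of 0.05. In Prop1df/df against Pit1+/+, 1 of 34 members (2.94%) passed, beside 10.6% of all genes, and it was higher, as were 3.25% of all genes. In Prop1df/df against Pit1dw/dw, 1 of 34 members passed, beside 6.26% of all genes, and it was higher, as were 2.21%. In Pit1dw/dw against Pit1+/+, 0 of 34 members passed, beside 0.77% of all genes, and the lowest adjusted p of a member was 0.250. Any 2 of these comparisons share the pools of a genotype.

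Unadjusted p was under 0.05 for 7 members in Prop1df/df against Pit1+/+ (Itga3, Itga6, Itga8, Itga9, Itgal, Itgb1 and Lamc1; 24.4% of all genes had such a p). It was under 0.05 for 3 members in Prop1df/df against Pit1dw/dw (Itga3, Itga9 and Itgax; 20.1% of all genes) and for 2 in Pit1dw/dw against Pit1+/+ (Itga9 and Itgal; 8.46%). The groups of 5 pools did not overlap for Itga9 in both Prop1df/df comparisons, where 8.01% and 8.5% of all genes did not overlap, and for Itgal in Pit1dw/dw against Pit1+/+ (2.78%). A change of at least 1.5-fold either way was found for 2 members in Prop1df/df against Pit1+/+ (Itga6 and Itga9; 12.2% of all genes), 1 in Prop1df/df against Pit1dw/dw (Itga9; 8.92%) and 0 in Pit1dw/dw against Pit1+/+ (2.95%). The median log2 difference of the 34 members was 0.15 in Prop1df/df against Pit1+/+, 0.12 in Prop1df/df against Pit1dw/dw and 0.04 in Pit1dw/dw against Pit1+/+, beside -0.04, -0.02 and -0.02 over all genes. Differences were above 0 for 24, 24 and 22 members, beside 44.2%, 46.4% and 45.2% of all genes.

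**Figure D1:**
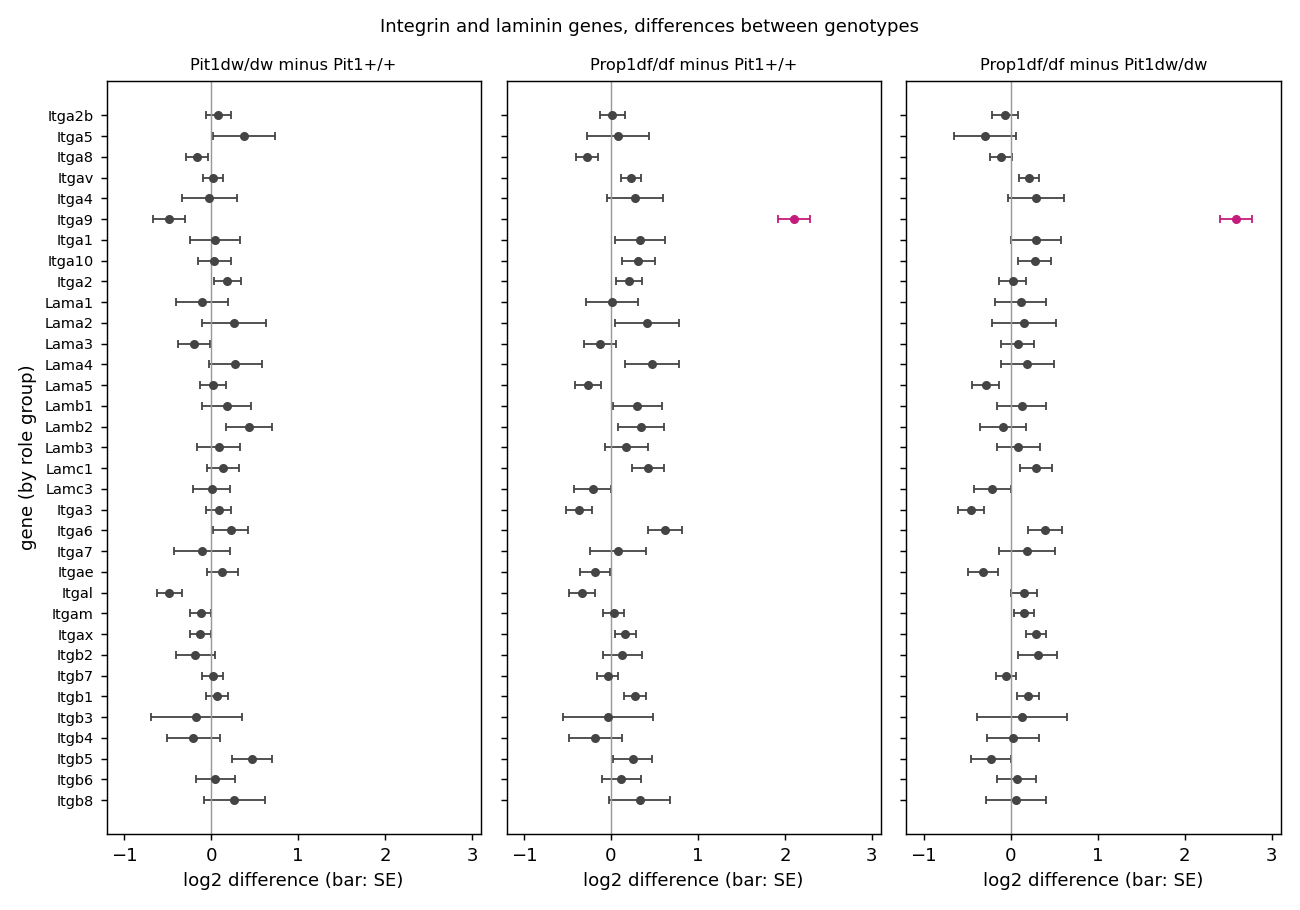
Log2 differences of the 34 integrin and laminin genes in the 3 comparisons, with the gene down the page and the difference on the x axis; points are fitted differences, bars their standard errors, and magenta marks an adjusted p under 0.05. Itga9 stands at 2.11 and 2.59 in the 2 Prop1df/df comparisons, and the other members lie within 0.62 of 0 on either side.

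Itga9 had log2 signals of 6.52, 6.29, 6.37, 6.47 and 6.14 in the Prop1df/df pools. It had 3.52, 3.80, 4.22, 3.53 and 3.77 in the Pit1dw/dw pools, and 4.17, 4.97, 4.10, 3.94 and 4.08 in the Pit1+/+ pools. Every Prop1df/df pool was above every pool of the other 2 groups, which overlapped each other. The means were 6.36 ± 0.15 in Prop1df/df, 3.77 ± 0.28 in Pit1dw/dw and 4.25 ± 0.41 in Pit1+/+ (SD, n = 5 each), so both groups of DW/J mice lay below or near 4.37, the median of all values on the arrays. Array signals compress differences at such low levels, so the folds and ranks of Itga9 are those of the RMA scale and may understate the change. The log2 difference was 2.11 ± 0.18 (SE; limma adjusted p = 2.34e-06) against Pit1+/+ and 2.59 ± 0.18 (limma adjusted p = 3.04e-07) against Pit1dw/dw. By size this was the 29th of 591 genes that were higher in Prop1df/df than in Pit1+/+, and the 16th of 402 higher than in Pit1dw/dw. Pit1dw/dw against Pit1+/+ gave -0.48 ± 0.18 (limma adjusted p = 0.409).

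In the 2 Prop1df/df pools with low growth hormone signal Itga9 was at 6.47 and 6.14, and with the other 3 left out its difference was 2.05 against Pit1+/+ (limma adjusted p = 0.000686) and 2.54 against Pit1dw/dw (limma adjusted p = 0.000162). Without the 5 pools high in Prph the differences were 2.03 (limma adjusted p = 0.000587) and 2.71 (limma adjusted p = 0.000244). Itga9 passed under each of 23 other settings in both comparisons, with limma adjusted p of at most 0.000686. With every probe set fitted on its own, this was by 1460285_at only. The filter on dim probe sets kept Itga9 through its signal in the Prop1df/df pools, so passing in that setting adds no support. The Itga9 difference depended on the probe set. The other 2 probe sets named for Itga9 were dim in every group, at means of 3.82 and 3.48 in Prop1df/df, 3.70 and 3.29 in Pit1dw/dw and 3.79 and 3.23 in Pit1+/+. Neither passed, with differences of 0.03 and 0.25 against Pit1+/+ and 0.12 and 0.19 against Pit1dw/dw. Over the mean of the 3 probe sets the difference was 0.80 (limma adjusted p = 0.000189) and 0.97 (limma adjusted p = 3.89e-05). Which part of the transcript each probe set reads was not analysed here.

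**Figure D2:**
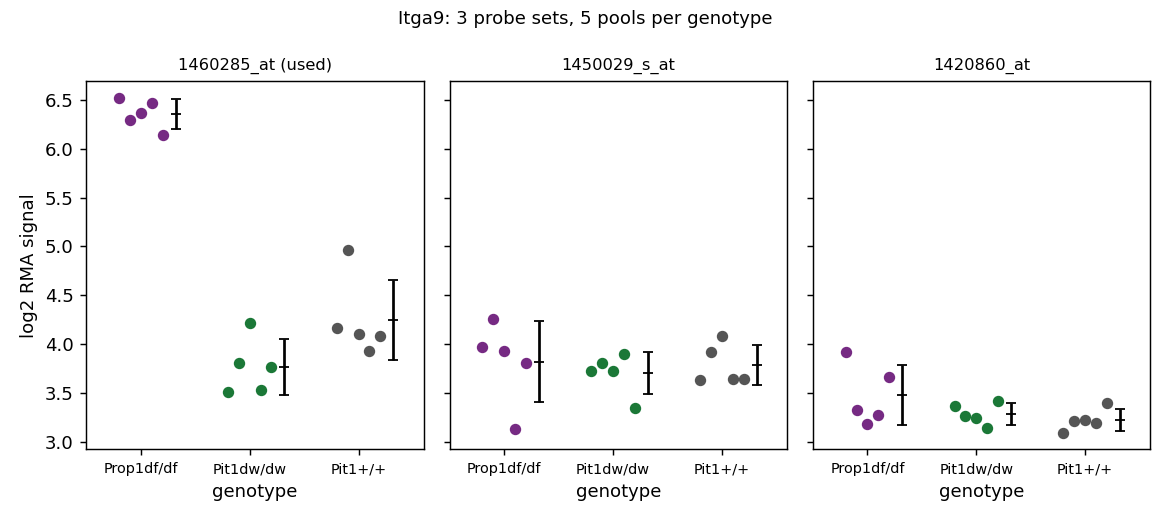
Log2 RMA signal of the 3 probe sets named for Itga9 on the y axis, by genotype on the x axis; each point is a pool, and the bar is the mean with its SD over 5 pools. In 1460285_at, the probe set used, the 5 Prop1df/df pools lie between 6.14 and 6.52, above all pools of Pit1dw/dw and Pit1+/+, while the genotypes overlap in the other 2.

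A RefSeq promoter window of Itga9 is shown because this gene carries the difference between genotypes. Those of Lama2 and Lamb1 are shown as examples of genes that varied between pools of a genotype. Their SDs within a genotype were 0.65 and 0.48, beside a median of 0.348 over the 34 members. Several other members varied more than Lamb1. Each window runs from 250 bases before to 50 bases after a transcript start in RefSeq on GRCm38.p6, 5′ to 3′ on the gene's strand, with the 50 bases after the start in capitals. The Itga9 window is chr9:118711442-118711741 on the plus strand, and it lies 104983 bases downstream of the start of the gene record, so it belongs to a start inside the gene and not to its 5′ end. The Lama2 window is chr10:27616893-27617192 on the minus strand, 249 bases inside the gene record, and the Lamb1 window is chr12:31265043-31265342 on the plus strand, 147 bases inside.
Itga9: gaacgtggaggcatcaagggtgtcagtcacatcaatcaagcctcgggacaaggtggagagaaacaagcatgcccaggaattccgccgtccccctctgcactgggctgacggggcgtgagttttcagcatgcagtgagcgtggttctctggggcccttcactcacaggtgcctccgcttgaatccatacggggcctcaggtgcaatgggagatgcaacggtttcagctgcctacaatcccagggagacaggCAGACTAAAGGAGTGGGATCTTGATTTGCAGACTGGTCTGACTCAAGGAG
Lama2: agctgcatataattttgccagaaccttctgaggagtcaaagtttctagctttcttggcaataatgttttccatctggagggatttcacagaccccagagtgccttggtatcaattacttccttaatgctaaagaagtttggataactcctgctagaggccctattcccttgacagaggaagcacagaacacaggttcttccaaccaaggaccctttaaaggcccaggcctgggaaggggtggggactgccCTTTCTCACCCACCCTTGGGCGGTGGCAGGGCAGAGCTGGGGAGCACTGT
Lamb1: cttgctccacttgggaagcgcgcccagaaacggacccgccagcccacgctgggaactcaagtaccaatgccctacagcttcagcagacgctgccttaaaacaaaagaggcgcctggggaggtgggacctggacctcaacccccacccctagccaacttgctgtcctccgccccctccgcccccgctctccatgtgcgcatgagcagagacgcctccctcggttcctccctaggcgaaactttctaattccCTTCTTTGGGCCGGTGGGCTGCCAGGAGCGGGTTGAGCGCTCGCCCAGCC
GC content was 56.7% in the Itga9 window, 50.3% in that of Lama2 and 63.7% in that of Lamb1. Of the 34 members, 22 had a RefSeq promoter window, with 25 windows in all. Both strands were searched for 2 motifs. TATNCAT, bound by PIT1 and other POU factors, was in 1 window, of Itgax, beside 8.84% of all 32851 windows of the same length. ACAAAG, the core read by SOX factors, was in 2 windows, 1 of Itgb1 and 1 of Itga3, beside 18.7%. A match describes letters in these windows and is not a measured site.

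The genes on either side of Itga9 on mouse chromosome 9 are Golga4 and Ctdspl in RefSeq. Neither rose with it. Golga4, a Golgi tether, differed by -0.32 in Prop1df/df against Pit1+/+ (limma adjusted p = 0.272) and by -0.27 against Pit1dw/dw (limma adjusted p = 0.400). Ctdspl, a small phosphatase, differed by -0.38 (limma adjusted p = 0.133) in Prop1df/df against Pit1+/+, and it fell by 0.76 ± 0.15 against Pit1dw/dw (limma adjusted p = 0.00625).

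Itga4, the closest relative of Itga9 and a receptor subunit for VCAM1 and fibronectin, had 6.93, 6.78, 7.59, 7.60 and 6.33 in Prop1df/df pools, 6.43, 6.41, 7.34, 6.72 and 6.88 in Pit1dw/dw pools and 6.85, 5.66, 7.65, 6.88 and 6.84 in Pit1+/+ pools. The 3 groups overlapped, with Prop1df/df pools 3 and 4, Pit1dw/dw pool 3 and Pit1+/+ pool 3 at the top of each. Its difference was 0.27 ± 0.32 in Prop1df/df against Pit1+/+ (limma adjusted p = 0.654) and 0.29 ± 0.32 against Pit1dw/dw (limma adjusted p = 0.665). Itga4 has 5 probe sets, and the next brightest, 1456498_at, passed when every probe set was fitted on its own, by 0.88 against Pit1+/+ (limma adjusted p = 0.0207) and 0.98 against Pit1dw/dw (limma adjusted p = 0.0144). Itgb1, the beta subunit that pairs with Itga9 and with most of the alpha subunits described here, was at 8.39, 8.31, 7.91, 7.86 and 7.89 in Prop1df/df, 8.18, 7.79, 7.83, 7.86 and 7.69 in Pit1dw/dw and 7.72, 7.82, 7.68, 7.87 and 7.91 in Pit1+/+. All 15 pools lay within a narrow band, with Prop1df/df pools 1 and 2 highest, and the difference of Prop1df/df against Pit1+/+ was 0.27 ± 0.13 (limma adjusted p = 0.200).

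Of the alpha subunits that bind laminin, 0 of 3 passed in any comparison. Itga6, which pairs with Itgb1 or Itgb4 in epithelia and nerve sheaths, had the next lowest adjusted p after Itga9. It was at 9.997, 10.22, 10.08, 10.57 and 9.91 in Prop1df/df, 9.43, 9.98, 10.02, 9.60 and 9.77 in Pit1dw/dw and 9.04, 9.54, 10.13, 9.16 and 9.80 in Pit1+/+. Pools 3 and 5 of Pit1+/+ reached into the range of Prop1df/df or came close to it. The difference was 0.62 ± 0.20 or 1.54-fold against Pit1+/+ (limma adjusted p = 0.0581) and 0.39 ± 0.20 against Pit1dw/dw (limma adjusted p = 0.284). Against Pit1+/+ Itga6 passed in 9 of 23 other settings, among them leaving out Pit1+/+ pool 3 (limma adjusted p = 0.0148) or pool 5 (limma adjusted p = 0.0348). Over 22 of the 23 settings the limma adjusted p ran from 0.00289 to 0.223. It was highest without Prop1df/df pools 1, 2 and 3, where the log2 difference was 0.70. Its other probe set, 1422444_at, gave 0.82 (limma adjusted p = 0.0272) when fitted on its own.

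Itga3, the laminin receptor subunit of epithelia, was lower on average in Prop1df/df, without passing. It was at 6.03, 6.60, 6.56, 6.54 and 6.87 in Prop1df/df, 6.996, 7.10, 7.01, 6.96 and 6.80 in Pit1dw/dw and 6.97, 6.69, 7.17, 7.03 and 6.58 in Pit1+/+. Pool 5 alone kept Prop1df/df from lying wholly below Pit1dw/dw. The difference was -0.45 ± 0.15 against Pit1dw/dw (limma adjusted p = 0.0856) and -0.37 ± 0.15 against Pit1+/+ (limma adjusted p = 0.133). Without Prop1df/df pool 5 the difference from Pit1dw/dw passed, at -0.54 (limma adjusted p = 0.0468), and without pools 1, 2 and 3 it was -0.27 (limma adjusted p = 0.542). A second probe set, 1455158_at, gave -1.11 against Pit1dw/dw (limma adjusted p = 0.0393) on its own. Itga7, the laminin receptor subunit of muscle and Schwann cells, was dim, with means of 4.09 ± 0.65 in Prop1df/df, 3.91 ± 0.28 in Pit1dw/dw and 4.01 ± 0.69 in Pit1+/+ (SD, n = 5 each).

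Of the laminin alpha chains, 0 of 5 passed in any comparison, and the spread between pools of a genotype was wide. Lama4, the alpha chain of vessel and nerve basement membranes, was at 9.16, 9.33, 9.65, 9.74 and 8.66 in Prop1df/df, 8.83, 8.83, 9.64, 9.14 and 9.15 in Pit1dw/dw and 9.26, 8.20, 9.76, 9.03 and 7.93 in Pit1+/+. Lama2, the alpha chain of muscle and Schwann cell basement membranes, was at 8.54, 8.97, 9.26, 9.53 and 8.15 in Prop1df/df, 8.38, 8.66, 9.57, 8.62 and 8.45 in Pit1dw/dw and 8.67, 7.90, 9.64, 8.74 and 7.41 in Pit1+/+. For both genes pools 2 and 5 of Pit1+/+ were lowest and Pit1+/+ pool 3 was highest of all 15. Prop1df/df against Pit1+/+ gave 0.47 ± 0.31 for Lama4 (limma adjusted p = 0.374) and 0.42 ± 0.37 for Lama2 (limma adjusted p = 0.530). Against Pit1dw/dw they gave 0.19 and 0.15. Lama1, the chain of the earliest embryonic basement membranes, had means of 6.04 ± 0.35 in Prop1df/df, 5.93 ± 0.26 in Pit1dw/dw and 6.03 ± 0.78 in Pit1+/+ (SD, n = 5 each). Lama5, the widespread epithelial and vessel chain, had 7.12 ± 0.18, and its difference was -0.29 ± 0.15 against Pit1dw/dw (7.41 ± 0.31; limma adjusted p = 0.309) and -0.26 ± 0.15 against Pit1+/+ (7.39 ± 0.23; limma adjusted p = 0.310). Lama3, which anchors stratified epithelium, was dim at 3.81 to 4.38 in Prop1df/df, 3.75 to 4.56 in Pit1dw/dw and 3.81 to 4.78 in Pit1+/+.

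Of the laminin beta and gamma chains, 0 of 5 passed in any comparison. Lamb2, the beta chain of synapses and the kidney filter, was at 8.34, 8.57, 8.45, 8.29 and 8.30 in Prop1df/df, 8.62, 8.22, 8.46, 8.65 and 8.47 in Pit1dw/dw and 8.82, 7.55, 8.28, 8.58 and 6.98 in Pit1+/+. Its mutant pools were close together, and Pit1+/+ spread over both sides of them, so that 0.44 ± 0.26 in Pit1dw/dw against Pit1+/+ did not pass (limma adjusted p = 0.727). Lamc1, the gamma chain of most laminins, was at 8.48, 8.57, 8.40, 8.89 and 7.75 in Prop1df/df, 7.94, 8.33, 8.39, 8.16 and 7.82 in Pit1dw/dw and 7.82, 7.99, 8.38, 7.80 and 7.96 in Pit1+/+. Prop1df/df pool 5 was the lowest of the 15, while the other 4 Prop1df/df pools were above every Pit1+/+ pool. The difference against Pit1+/+ was 0.43 ± 0.19 (limma adjusted p = 0.168), and Lamc1 passed without Prop1df/df pool 5. Lamb1, the beta chain most laminins share, had means of 10.37 ± 0.32 in Prop1df/df, 10.25 ± 0.44 in Pit1dw/dw and 10.07 ± 0.64 in Pit1+/+ (SD, n = 5 each). Lamb3 and Lamc3 were dim, with means of 4.30 and 3.42 in Prop1df/df, 4.21 and 3.63 in Pit1dw/dw and 4.12 and 3.62 in Pit1+/+.

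Of the collagen-binding alpha subunits, 0 of 3 passed in any comparison. Itga1, a collagen receptor subunit of vessels and connective tissue, was at 8.81, 8.46, 7.34, 8.25 and 7.69 in Prop1df/df, 7.95, 7.38, 7.38, 7.95 and 8.43 in Pit1dw/dw and 7.56, 7.31, 7.55, 7.98 and 8.47 in Pit1+/+. Itga10, a collagen receptor subunit of cartilage, was at 4.46, 4.80, 4.82, 4.51 and 5.15 in Prop1df/df, 4.86, 3.89, 4.57, 4.66 and 4.40 in Pit1dw/dw and 4.70, 4.11, 4.12, 4.68 and 4.58 in Pit1+/+. The genotypes overlapped in both genes, and Prop1df/df against Pit1+/+ gave 0.34 ± 0.29 for Itga1 (limma adjusted p = 0.516) and 0.31 ± 0.19 for Itga10 (limma adjusted p = 0.335). Itga2, the collagen receptor subunit of platelets and epithelia, was dim, with means of 3.22 in Prop1df/df, 3.20 in Pit1dw/dw and 3.01 in Pit1+/+.

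Of the alpha subunits that read the RGD tripeptide of fibronectin and vitronectin, 0 of 4 passed in any comparison. Itga5, of the classical fibronectin receptor, was at 6.89, 7.60, 7.98, 7.45 and 6.86 in Prop1df/df, 7.48, 7.34, 7.70, 7.90 and 7.83 in Pit1dw/dw and 8.06, 6.49, 7.71, 8.09 and 6.02 in Pit1+/+. Itga8, a nephronectin receptor subunit of mesenchyme, was at 6.44, 6.83, 6.62, 6.59 and 6.58 in Prop1df/df, 6.61, 6.78, 6.51, 7.14 and 6.57 in Pit1dw/dw and 6.80, 7.14, 6.70, 6.90 and 6.89 in Pit1+/+. Itga5 was lowest in Pit1+/+ pools 2 and 5, and Itga8 lay close together in every group. The Itga8 difference was -0.27 ± 0.13 in Prop1df/df against Pit1+/+ (limma adjusted p = 0.202), and that of Itga5 was 0.38 ± 0.36 in Pit1dw/dw against Pit1+/+ (limma adjusted p = 0.882). Itgav, which pairs with several beta subunits, had the smallest spread of the 34 and means of 10.64 ± 0.17 in Prop1df/df, 10.43 ± 0.08 in Pit1dw/dw and 10.41 ± 0.21 in Pit1+/+ (SD, n = 5 each). Itga2b, of the platelet fibrinogen receptor, was dim at means of 4.05 in Prop1df/df, 4.12 in Pit1dw/dw and 4.03 in Pit1+/+.

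Of the other beta subunits, 0 of 6 passed in any comparison. Itgb5, which pairs with Itgav to bind vitronectin, was at 7.85, 7.91, 7.94, 7.48 and 7.72 in Prop1df/df, 7.91, 7.79, 7.82, 8.38 and 8.12 in Pit1dw/dw and 8.06, 7.38, 7.68, 7.97 and 6.56 in Pit1+/+. Itgb8, which with Itgav releases active TGF-beta, was at 6.85, 6.81, 7.43, 7.70 and 6.51 in Prop1df/df, 6.75, 6.72, 7.55, 6.84 and 7.13 in Pit1dw/dw and 6.63, 6.71, 8.19, 6.20 and 5.92 in Pit1+/+. Pit1+/+ pool 5 was the lowest pool for both. Itgb5 differed by 0.47 ± 0.23 in Pit1dw/dw against Pit1+/+ (limma adjusted p = 0.610) and Itgb8 by 0.33 ± 0.35 in Prop1df/df against Pit1+/+ (limma adjusted p = 0.611). Itgb3, of platelets, osteoclasts and growing vessels, had the widest spread of the 34, at 5.24 to 6.79 in Prop1df/df, 4.65 to 6.77 in Pit1dw/dw and 4.88 to 7.87 in Pit1+/+. Itgb4, the hemidesmosome partner of Itga6, had a mean of 3.75 in Prop1df/df, 3.72 in Pit1dw/dw and 3.93 in Pit1+/+, and Itgb6, an epithelial partner of Itgav, had 4.14 in Prop1df/df, 4.07 in Pit1dw/dw and 4.02 in Pit1+/+.

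The leukocyte subunits were dim, with 0 of 6 past the threshold in any comparison and mean signals under the median of all values. Itgal, of the ICAM receptor of lymphocytes and other white cells, was at 4.24, 3.56, 3.92, 3.35 and 4.08 in Prop1df/df, 3.70, 3.50, 3.82, 3.64 and 3.76 in Pit1dw/dw and 4.17, 3.97, 4.15, 4.30 and 4.21 in Pit1+/+. Every Pit1dw/dw pool was below every Pit1+/+ pool, by -0.48 ± 0.15 or 1.39-fold (limma adjusted p = 0.250). Over the 6 lymphocyte markers measured, list means ran from 3.95 to 4.46 in Prop1df/df, 3.87 to 4.36 in Pit1dw/dw and 4.75 to 5.06 in Pit1+/+. Of the 6, 2 (Cd79a and Cd79b, of the B cell receptor) passed as lower in Prop1df/df and in Pit1dw/dw than in Pit1+/+. Over all genes, 7.31% passed as lower in Prop1df/df and 0.605% in Pit1dw/dw. The T cell markers of the list differed little from Pit1+/+. Cd3e differed by 0.07 in Prop1df/df and 0.11 in Pit1dw/dw, and Cd3g by -0.06 and -0.11. In each mutant 1 of the 6, Cd3e, was above 0. The part of lymphocytes in the Itgal values was not tested. Itgae, the E-cadherin receptor subunit of T cells in epithelia, was at 3.59, 3.60, 4.03, 3.61 and 3.51 in Prop1df/df, 3.57, 3.88, 4.16, 4.49 and 3.82 in Pit1dw/dw and 3.96, 3.84, 3.82, 4.20 and 3.44 in Pit1+/+. These groups overlapped. The myeloid subunits Itgam, Itgax and Itgb2 and the lymphocyte subunit Itgb7 had means of 2.69, 3.00, 3.82 and 3.58 in Prop1df/df, 2.53, 2.71, 3.51 and 3.64 in Pit1dw/dw and 2.65, 2.83, 3.69 and 3.62 in Pit1+/+.

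Several probe sets were named for 20 of the 34 members, 73 in all. Fitted each on its own, 4 of 73 (5.48%) passed in Prop1df/df against Pit1+/+, beside 8.12% of all probe sets, and 4 of 73 in Prop1df/df against Pit1dw/dw, beside 5.15%. In Pit1dw/dw against Pit1+/+ 0 of 73 passed, beside 0.478%. Besides those of Itga9, Itga6, Itga4 and Itga3 given above, these were 2 dim probe sets, 1424808_at of Lama4 (0.69 in Prop1df/df against Pit1+/+, limma adjusted p = 0.0292) and 1438119_at of Itgb1 (-0.66 in Prop1df/df against Pit1dw/dw, limma adjusted p = 0.0112). The used probe sets of these genes gave 0.47 for Lama4 and 0.20 for Itgb1 in the same comparisons and did not pass.

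Integrin and laminin genes varied more between pools of a genotype than most genes. Within a genotype the median SD was 0.348 over the 34 members and 0.251 over all genes, and 23 of 34 members were above the median of all genes. Among genes with a mean above the median of all values, it was 0.424 over 20 members and 0.274 over 11783 genes. Itgb3 (0.93), Lama2 (0.65), Itga5 (0.63) and Itgb8 (0.61) had the largest SDs and Itgav (0.16) the smallest.

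**Figure D3:**
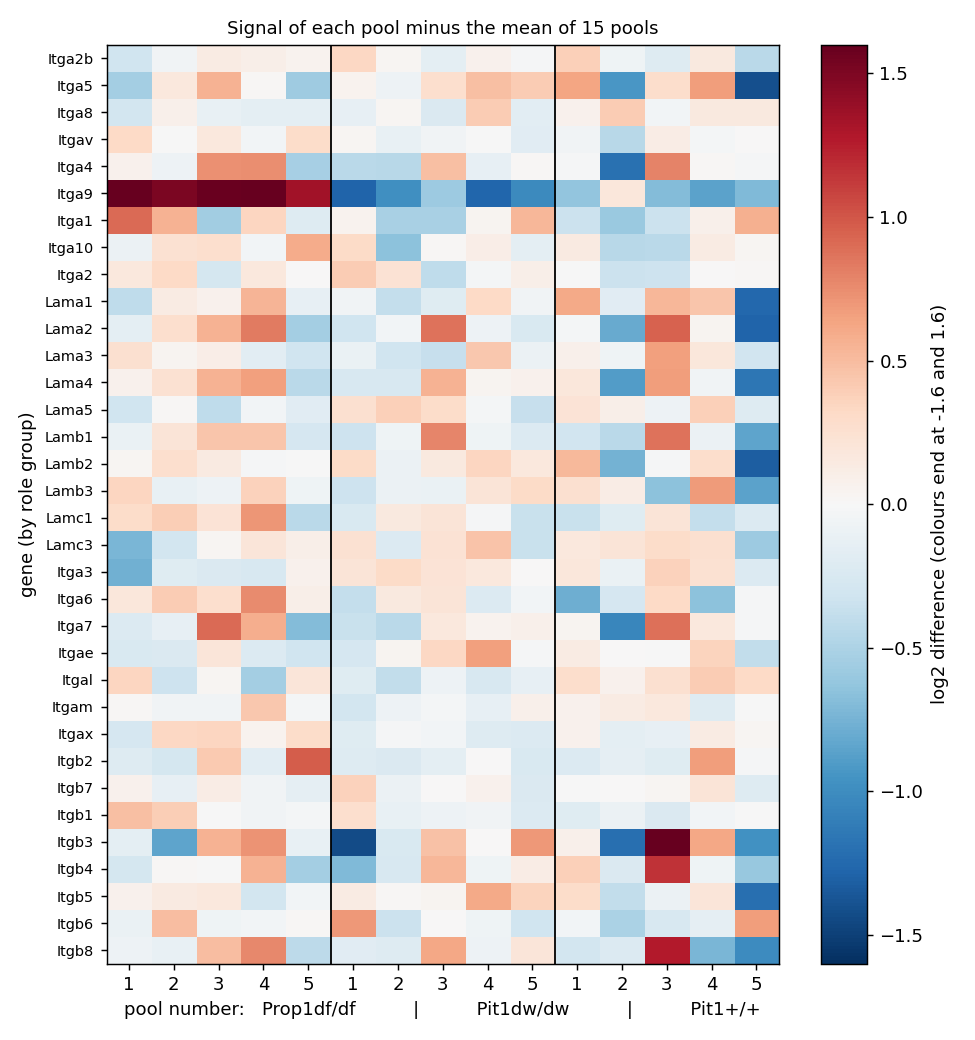
Log2 signal of each of the 34 genes (down the page) in each of 15 pools (across the page, by genotype), as the difference from the gene's mean over all pools; red is above and blue below it, and colours end at a difference of 1.6. The Itga9 row splits by genotype, while Lama2, Lama4, Lamb1, Itgb3 and Itgb8 change from pool to pool within a genotype, with Pit1+/+ pool 3 high and Pit1+/+ pool 5 low.

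Some of these genes were highest in the pools highest in markers of nerve sheath, and others were not. The pattern was noticed in the values, so it is a description with no test. The mean of the 6 Schwann and glia markers measured (Mbp, Sox10, Erbb3, Foxd3, Pmp22 and Mal) was 7.61, 8.63, 8.88, 9.33 and 7.69 in Prop1df/df pools, 6.83, 8.36, 8.93, 7.60 and 8.25 in Pit1dw/dw pools and 7.27, 5.53, 9.43, 6.70 and 5.42 in Pit1+/+ pools. Prop1df/df pool 4, Pit1dw/dw pool 3 and Pit1+/+ pool 3 were therefore highest in each group. Of the 20 brighter members, 6 were highest in exactly those pools in all 3 groups (Itga4, Itga6, Itgb8, Lama2, Lama4 and Lamc1), or 30%, beside 2.21% of 11783 genes above the same median. By a looser count, 11 of 20 (55%) were higher in the Schwann-highest than in the Schwann-lowest pool of each group, beside 38.4% of genes. Itga5 and Itgb3, among the widest, peaked elsewhere in Pit1dw/dw, Itga5 in pool 4 (7.90) and Itgb3 in pool 5 (6.77). Sensory neuron markers were highest in the same pool as Schwann markers in Pit1dw/dw and Pit1+/+ but in pool 3 of Prop1df/df, with a mean of 8 genes of 6.51, 5.99, 9.93, 8.78 and 5.52 in Prop1df/df, 6.13, 8.02, 9.44, 6.15 and 7.67 in Pit1dw/dw and 5.74, 6.12, 10.09, 6.14 and 5.76 in Pit1+/+.

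The highest and lowest pools of each group were counted in the same way. Pit1+/+ pool 3 was the highest of its group for 10 of the 20 brighter members, beside 23.2% of genes, and Pit1+/+ pool 5 was the lowest for 10 of 20, beside 50% of genes, so the share for pool 5 was that of genes at large. Prop1df/df pool 4 was highest for 8 of 20 (24.1% of genes) and pool 5 lowest for 9 of 20 (28.2% of genes). Pit1dw/dw pool 3 was highest for 8 of 20 (22.8% of genes). Pit1dw/dw pool 2, with the next highest Schwann mean of its group (8.36), was lowest for 8 of 20 (18.9% of genes). With the Schwann and the neuron list means as covariates, Itga9 stayed past the threshold, by 2.30 against Pit1+/+ and 2.68 against Pit1dw/dw, and Itga3 passed too in both comparisons. The dim Itgb4 also passed against Pit1+/+, and Itga6 did not.

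**Figure D4:**
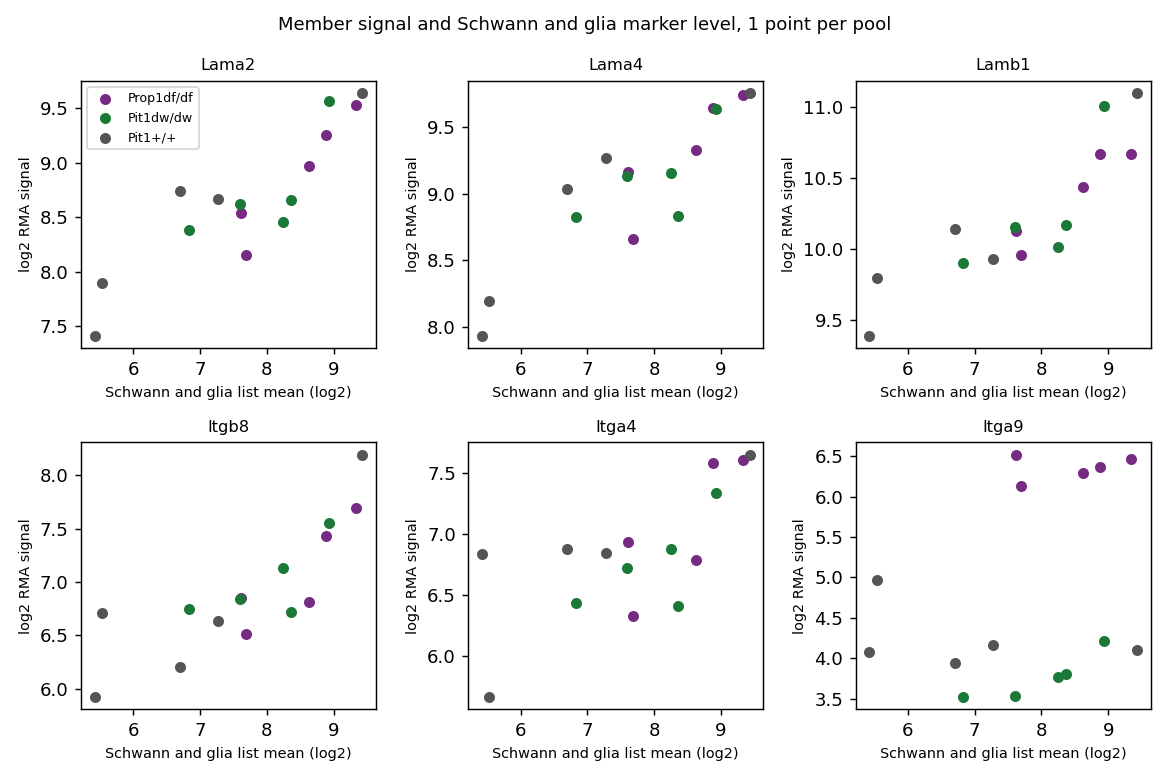
Log2 RMA signal of 6 members on the y axes against the mean log2 signal of 6 Schwann and glia markers on the x axes, with a point per pool coloured by genotype. Lama2, Lama4, Itgb8 and Itga4 are highest in the pool farthest right of each genotype, while Pit1dw/dw pool 2, at 8.36, is low for Itgb8 (6.72) and Itga4 (6.41), and Itga9 is at 6.14 to 6.52 in Prop1df/df whatever the marker level.

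Other cell types that carry these genes were followed by marker lists. Over all genes, 3.25% passed as higher and 7.31% as lower in Prop1df/df than in Pit1+/+. Against Pit1dw/dw 2.21% of all genes passed as higher in Prop1df/df. Pituitary progenitor markers (6 measured) had list means of 7.57 to 7.94 in Prop1df/df, 7.07 to 7.29 in Pit1dw/dw and 6.73 to 7.20 in Pit1+/+. The list mean of Prop1df/df was thus above both other groups in every pool, but its members differed. Of these, Hesx1 and Cdh1 passed as higher and Gfra2 as lower in Prop1df/df than in Pit1+/+. Against Pit1dw/dw only Hesx1 and Cdh1 passed, both higher. There 4 of 6 were above 0, and differences ran from -0.55 to 2.56. Bone and cartilage markers (9 measured) ran from 5.60 to 7.20 in Prop1df/df, 4.86 to 6.25 in Pit1dw/dw and 4.11 to 5.94 in Pit1+/+. Of these, 3 passed as higher in Prop1df/df than in Pit1+/+ (Col2a1, Col9a1 and Matn1). Neutrophil and monocyte markers (8 measured) ran from 5.00 to 7.31 in Prop1df/df, 4.56 to 5.24 in Pit1dw/dw and 4.18 to 6.46 in Pit1+/+, and 1 of 8 (Lcn2) passed as higher in Prop1df/df than in Pit1dw/dw. Mesenchyme and pericyte markers ran from 9.68 to 10.19 in Prop1df/df, 9.48 to 9.97 in Pit1dw/dw and 8.91 to 9.84 in Pit1+/+, and 2 of 8 (Col3a1 and Twist1) passed as higher in Prop1df/df than in Pit1+/+. Endothelial markers overlapped, at 6.10 to 7.09 in Prop1df/df, 6.50 to 7.02 in Pit1dw/dw and 6.30 to 6.84 in Pit1+/+. So did macrophage markers, at 6.24 to 6.73 in Prop1df/df, 6.11 to 7.04 in Pit1dw/dw and 5.88 to 7.02 in Pit1+/+. Skeletal muscle markers were dim in each group, at 3.44 to 3.98 in Prop1df/df, 3.27 to 3.70 in Pit1dw/dw and 3.23 to 3.66 in Pit1+/+. The part of any of these cells in the Itga9, Ccn2 and Postn values was not tested.

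Among other ligands of integrins, 4 of 15 measured genes passed in Prop1df/df against Pit1+/+, 3 higher and 1 lower, beside 10.6% of all genes. In Prop1df/df against Pit1dw/dw 2 of 15 passed, beside 6.26% of all genes, and in Pit1dw/dw against Pit1+/+ 0 of 15, beside 0.77%. Ccn2, a matrix protein that integrins bind, was at 11.26, 10.66, 10.40, 10.66 and 10.35 in Prop1df/df, 10.13, 9.55, 9.30, 10.03 and 9.98 in Pit1dw/dw and 9.77, 8.04, 9.38, 9.53 and 9.01 in Pit1+/+. Prop1df/df lay above both other groups in every pool, by 1.52 ± 0.28 against Pit1+/+ (limma adjusted p = 0.00238; 0.0637 without Prop1df/df pools 1, 2 and 3) and by 0.87 ± 0.28 against Pit1dw/dw (limma adjusted p = 0.0835). Postn, periostin of fibrous tissue and bone, was at 9.50, 9.36, 9.37, 9.10 and 9.01 in Prop1df/df, 8.35, 7.98, 8.69, 8.59 and 8.28 in Pit1dw/dw and 8.71, 6.86, 8.52, 8.48 and 7.93 in Pit1+/+. It rose by 1.17 ± 0.27 against Pit1+/+ (limma adjusted p = 0.0115), a call lost without Prop1df/df pools 1, 2 and 3 (0.96, limma adjusted p = 0.226) and with the nerve marker covariates (0.65, limma adjusted p = 0.185).

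Tnc, tenascin C, is among the ligands of the receptor that holds Itga9, as are Vcam1, Emilin1, Thbs1 and Fn1 of the same list, which did not pass in any comparison. Its used probe set was at 8.36, 7.998, 8.31, 7.89 and 8.43 in Prop1df/df, 6.32, 6.51, 6.96, 6.33 and 7.04 in Pit1dw/dw and 7.86, 7.01, 7.28, 7.89 and 7.46 in Pit1+/+. Pit1dw/dw lay lowest and Prop1df/df highest, where the lowest pool and the highest Pit1+/+ pool were both at 7.89. The log2 difference was 1.57 ± 0.19 in Prop1df/df against Pit1dw/dw (limma adjusted p = 0.000118), 0.70 ± 0.19 in Prop1df/df against Pit1+/+ (limma adjusted p = 0.0300) and -0.87 in Pit1dw/dw against Pit1+/+ (limma adjusted p = 0.0528). The call against Pit1+/+ was lost in 9 of 22 other settings and reversed in 1, with limma adjusted p up to 0.239. Among these were leaving out Pit1+/+ pool 2 or 3 or Prop1df/df pool 1, 3 or 5 (at most 0.0831), array weights (0.128), the nerve marker covariates (0.160), leaving out the pools high in Prph (0.106), and leaving out Prop1df/df pools 1, 2 and 3 (0.66, limma adjusted p = 0.239). Without those last 3 pools the difference from Pit1dw/dw was 1.53 (limma adjusted p = 0.00981). With every probe set fitted on its own, a dimmer probe set of Tnc, 1456344_at, passed in the opposite direction. It gave -2.57 in Prop1df/df against Pit1+/+ (limma adjusted p = 0.00018) and -1.61 against Pit1dw/dw (limma adjusted p = 0.0098). In the same fit the used probe set had limma adjusted p of 0.0346 and 0.000106. The direction of Tnc therefore rests on the probe set, and the mean of both gave -0.93 and -0.022.

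Mfge8, a milk fat globule protein that bridges dying cells to integrins, was at 7.44, 7.81, 7.93, 7.83 and 7.67 in Prop1df/df, 8.39, 8.43, 8.75, 8.63 and 8.46 in Pit1dw/dw and 8.66, 8.34, 8.48, 8.62 and 7.59 in Pit1+/+. Prop1df/df lay below Pit1dw/dw in every pool, and Pit1+/+ pool 5 lay among the Prop1df/df values. It fell by 0.80 ± 0.17 against Pit1dw/dw (limma adjusted p = 0.0106) and by 0.61 ± 0.17 against Pit1+/+ (limma adjusted p = 0.0365). The fall against Pit1+/+ did not pass without any of Pit1+/+ pools 1, 2, 3 and 4 or Prop1df/df pools 1, 2, 4 and 5 (limma adjusted p of at most 0.0988), and without Prop1df/df pools 1, 2 and 3 together neither passed (limma adjusted p = 0.226 and 0.132).

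Of 24 other genes of basement membranes and laminin receptors, such as collagen IV, nidogens, perlecan and dystroglycan, 1 passed, in Prop1df/df against Pit1+/+. Over all genes, 10.6% passed in that comparison. Frem2, of the Fraser complex under embryonic epithelia, was at 6.22, 5.97, 5.13, 5.94 and 6.11 in Prop1df/df, 4.80, 5.50, 5.06, 5.49 and 4.98 in Pit1dw/dw and 4.95, 5.26, 4.98, 4.62 and 4.38 in Pit1+/+. Prop1df/df pool 3 lay inside the range of both other groups, and the other 4 lay above them. Frem2 rose by 1.03 ± 0.22 against Pit1+/+ (limma adjusted p = 0.00540; 0.0677 with the nerve marker covariates, and 1.19 with adjusted p = 0.0151 without Prop1df/df pools 1, 2 and 3). The 28 adaptor and adhesion signalling genes link integrins to actin. Of these, 1 passed in Prop1df/df against Pit1+/+ (10.6% of all genes). In Prop1df/df against Pit1dw/dw (6.26%) and Pit1dw/dw against Pit1+/+ (0.77%) it was 0. The gene that passed is given next. This was Rsu1, a partner of the integrin-linked kinase complex, at 8.04 to 8.32 in Prop1df/df, 7.98 to 8.26 in Pit1dw/dw and 7.83 to 7.97 in Pit1+/+, a rise of 0.32 ± 0.09 (limma adjusted p = 0.0330). That call was lost in 16 of 22 other settings, among them leaving out any of Pit1+/+ pools 1 to 4 or Prop1df/df pools 1 to 4 in turn (limma adjusted p of at most 0.0817) and pools 1, 2 and 3 together (0.26, limma adjusted p = 0.326).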

How the data were processed

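Pituitary RNA pools from newborn mice were measured on Affymetrix arrays, 1 array per pool, 5 pools for each of 3 genotypes. The deposited values are log2 signals made by the authors with RMA, per the submitters' processing notes, which name no version. RMA sets the arrays to a common distribution, so a shift of most genes together cannot be seen. Values ran from 1.83 to 14.83. Groups were taken from the titles, which call the pools biological replicates. With no counts behind the values, precision is set by the number of arrays.

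The arrays hold 45101 probe sets, of which 64 are controls; 34945 of the rest name 1 gene, 932 several and 9160 none. Each of 18193 genes was represented by the probe set with the highest mean over 15 arrays (9010 genes have more than 1). All 34 members were matched by gene ID to RefSeq with the same symbol. Group means were fitted to all 15 arrays by lmFit and eBayes of limma 3.58.1 under R 4.3.3 (two-sided), adjusted over all genes by Benjamini-Hochberg. The fit was tested on simulated data. A probe set is called dim where its mean is below 4.37. The filter on dim probe sets used another rule and left out those below 4.37 in more than 10 of the 15 arrays.

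The members were set by the symbol rule. The lists, among them the role groups of the members, were chosen with earlier results of these data known. Pool values were given for members past the threshold or without overlap between groups, and for the 2 of each role group with the largest difference; Itgb1 was added after its values were seen. Other adhesion genes are named where they passed. The settings tried were median centring, a further quantile normalisation, other uses of probe sets, a filter on dim ones, array weights, a trend of variance on intensity with a robust prior, fits of the compared groups alone, the replicate number as a block, a fold of 1.5 beside the threshold, and leaving out each pool. After seeing the data 3 were added: without 5 pools with Prph above 7, without 3 Prop1df/df pools with Gh above 13, and with nerve marker means as covariates. Replicate numbers were not used to pair pools, since same-numbered pools did not deviate together in every pair.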

Additional observations from a re-analysis of the deposited data

Results flagged for a closer look

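Among the 34 members, the 6 other adhesion genes named and 2 nerve marker lists, each genotype was searched for a pool far from its other 4 (a gap above 0.71 of the group's range). This marked 10 of 126 groups, or 7.94%. The cutoff would mark about 1 in 20 groups of independent values, but these genes share the same pools and are not independent. The search was not run over all genes, so whether 7.94% is high was not tested. Itga9 was at 4.97 in Pit1+/+ pool 2, with the next pool at 4.17, and still below every Prop1df/df pool. Lama2 was at 9.57 and Lamb1 at 11.01 in Pit1dw/dw pool 3, with the next pools at 8.66 and 10.17. The sensory neuron list mean was 10.09 in Pit1+/+ pool 3, with the next pool at 6.14. Frem2 was at 5.13 in Prop1df/df pool 3, with the next pool at 5.94. The other 5 were dim probe sets. In Prop1df/df, Itgae was at 4.03 in pool 3 (next 3.61), Itgam at 3.06 in pool 4 (next 2.64) and Itgb6 at 4.57 in pool 2 (next 4.10). In Pit1+/+, Itgb2 was at 4.34 in pool 4 (next 3.65) and Lamc3 at 2.97 in pool 5 (next 3.73).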

How the results depend on the processing

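Under each alternative with a single value per gene, Itga9 kept its direction and its call in both Prop1df/df comparisons. Its difference lay between 0.80 and 2.30 against Pit1+/+ and between 0.97 and 2.71 against Pit1dw/dw, lowest with the mean of its probe sets. With every probe set on its own, 1460285_at passed in both. The other probe sets of Itga9 did not, at 0.03 and 0.25 against Pit1+/+ and 0.12 and 0.19 against Pit1dw/dw. The filter on dim probe sets kept Itga9 through its Prop1df/df pools, so that setting adds no support. The count of members past the threshold moved for the others. In Prop1df/df against Pit1+/+ (1 member) it was 6 with array weights, 4 with every probe set on its own, 3 with the nerve marker covariates and 2 with an intensity trend, with the mean of probe sets, with a further quantile normalization and without dim probe sets (21 members left of 12133 genes); leaving out a pool gave 1 to 2, with Itga6 added without Pit1+/+ pool 3 or 5 and Lamc1 without Prop1df/df pool 5. In Prop1df/df against Pit1dw/dw (1 member) it was 4 with every probe set on its own, 3 with array weights and 2 with the covariates, with the mean of probe sets and without probe sets of the _x, _s or _a type (31 members left of 16591 genes); leaving out a pool gave 1 to 2, with Itgax added without Prop1df/df pool 1 and Itga3 without pool 5. In Pit1dw/dw against Pit1+/+ (0 members) array weights gave 1, Itgal, and leaving out a pool gave 0 to 0. With the replicate number as a block the counts were 2 (Itga6 and Itga9), 1 and 0. Correlations of same-numbered deviations ran from -0.31 to 0.67, so the numbers did not pair the pools throughout. The pools numbered 3, each with Prph above 7, did deviate together. Their correlations were 0.67 for Prop1df/df with Pit1+/+, 0.51 for Prop1df/df with Pit1dw/dw and 0.64 for Pit1dw/dw with Pit1+/+. Over all genes the 1920 of Prop1df/df against Pit1+/+ became 4297 with array weights, 890 without Prop1df/df pools 1, 2 and 3, and 1401 to 3258 without a pool, the last without Pit1+/+ pool 5. The 1139 against Pit1dw/dw became 2390 with array weights, 746 without pools with Prph above 7, 503 without Prop1df/df pools 1, 2 and 3, and 826 to 1345 without a pool. The 140 of Pit1dw/dw against Pit1+/+ became 571 with array weights, 51 without the Prph pools and 83 to 161 without a pool, under 140 by over 1.5 times without Pit1dw/dw pool 2, 4 or 5 or Pit1+/+ pool 2 or 4. Fewer pools are in these fits; otherwise the cause was not tested. Tnc reversed with the mean of its probe sets, to -0.93 (limma adjusted p = 0.0249) against Pit1+/+ and -0.022 (limma adjusted p = 0.975) against Pit1dw/dw, since its probe sets differ in sign.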
